A study of Homo sapiens with 4 samples.

Results

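Solute carrier (SLC) genes with cytidines misread after NaBH4 treatment were compared between untreated LX-2 cells and LX-2 cells given TGF-β1. The members are all genes of the deposited tables whose symbol begins with SLC, a family number, A and a member number. This rule found 58 genes of the 6112 in the tables, in 24 families, with 171 distinct cytidine positions of 17862. All 58 are protein-coding genes of the RefSeq gene table. The names of 3 of them hold that of a carrier but belong to other proteins: SLC2A4RG, a transcription factor that binds the SLC2A4 promoter, SLC4A1AP, the adaptor kanadaptin, and SLC7A6OS, a gene opposite to SLC7A6.

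The LX-2 line was derived from human hepatic stellate cells, is long established in culture and is labelled as wild type. The untreated group had 2 libraries, and the other 2 libraries came from cells given human recombinant TGF-β1 at 5 ng/ml for 24 h. N4-acetylcytidine (ac4C) in polyadenylated RNA is reduced by NaBH4 to a base that reverse transcriptase can misread, and the study asked how it differs after TGF-β1. The labels name no library that skipped NaBH4 or lacked the ac4C writer NAT10, so whether a listed cytidine mismatch is ac4C was not tested. Each group has 1 deposited table that gives a mismatch difference (here in percent) and a p-value for every listed cytidine. What was subtracted is not stated. Pairs of values below give control first and TGF-β1 second. The tables hold no reads and no values per library. No difference below therefore has a replicate error or a test, depth is unknown, and a cytidine absent from a table has no value rather than 0. More listed cytidines can come with more reads of a transcript, which was not tested. Of 12 markers of stellate or mesenchymal cells, 8 had listed positions, among them COL1A1 with 4 in control and 10 after TGF-β1 and TAGLN with 2 and 9, while COL1A2, DES, LRAT and RGS5 were not listed. None of 7 hepatocyte and 4 endothelial markers was listed, SOX9 was the only one listed of 4 cholangiocyte markers and CD68 of 4 macrophage markers. Absence from these tables does not measure expression.

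Solute carriers move nutrients, ions and metabolites across membranes, mostly by exchange or by cotransport with an ion. The SLC25 carriers sit in the inner mitochondrial membrane and exchange nucleotides, phosphate and metabolic acids with the cytosol. Amino acid carriers of the SLC1, SLC3, SLC7 and SLC38 families feed protein synthesis and mTORC1 signalling, the SLC2 family carries glucose and related sugars, and SLC39 and SLC30 carriers bring zinc into and out of the cytosol. Activated stellate cells need amino acids, above all glycine and proline, to make collagen.

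For 5 listed cytidines in 3 SLC genes the surrounding reference sequence could be read from RefSeq windows around transcription starts (build GRCh38.p14), and they are shown since they give the bases at which mismatches were recorded. Each is written 5′ to 3′ on the plus strand with the listed cytidines in capitals. The first holds 3 cytidines of the 5'UTR of SLC3A2, the heavy chain of several amino acid exchangers. The second is the 5'UTR cytidine of SLC35A4, a member of the nucleotide sugar carrier family, and the third is a 3'UTR cytidine of SLC2A4RG that lies in the window of ZBTB46-AS2.
SLC3A2, chr11:62880914-62880942: tgcgcggaggCaCagaggCcggggagagc
SLC35A4, chr5:140564826-140564846: acaagttcggCggggaagatg
SLC2A4RG, chr20:63743722-63743742: aagctaatccCgtcacagaaa
In SLC3A2 the first capital was listed after TGF-β1 only, at 3.17%, the second in control only, at 1.71%, and the third in both tables, at 2.06% in control and 3.52% after TGF-β1. The SLC35A4 cytidine had 9.30% in control and 11.2% after TGF-β1, and the SLC2A4RG cytidine 7.76% and 3.94%. These windows also served to check how coordinates are counted. With the end column read as the 1-based position, 478 of 478 listed positions of any gene inside a window were a C on their strand, against 78 of 479 with the start column. Positions below are given in that reading of hg38. Of these 5 cytidines only that of SLC2A4RG stands in the triplet CCG with the C in the middle, and only it and that of SLC35A4 are followed by G. Over all genes, 62.2% of 233 listed cytidines in the first 50 transcribed bases of the windows were followed by G (95% Wilson interval 55.9 to 68.2), against 31.8% of 102679 other cytidines there. A C stood before 19.3% (14.8 to 24.9) and 29.7%, and CCG was found at 12.02% (8.45 to 16.8) and 10.5%. These shares hold for the first transcribed bases only.

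After TGF-β1 the SLC genes had more listed cytidines in all, while the number of SLC genes listed was equal. There were 74 SLC positions in 44 genes in the control table and 118, also in 44 genes, in the TGF-β1 table. The ratio was 1.59, and over all genes it was 1.46. The order of these ratios turned with the threshold: at a deposited p under 0.001 they were 1.57 and 1.77, and over values of at least 5% they were 1.42 and 1.75. Of the 58 genes, 28 had more positions after TGF-β1 (48.3%, 95% Wilson interval 35.9 to 60.8), beside 51.2% of all 6112 genes. Fewer were listed in 19, beside 35.3% of all genes, and equal numbers in 11, beside 13.6%. Both tables held 30 of the genes, and each table held 14 genes alone, beside 27.3% of all genes for control and 28.3% for TGF-β1. These shares lie near those of all genes. A single listing over both tables was all that 21 SLC genes had (36.2%, beside 36.5% of all genes). When only as many TGF-β1 positions as the control list holds were kept, by lowest p, the SLC genes had 74 and 72 positions.

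**Figure D1:**
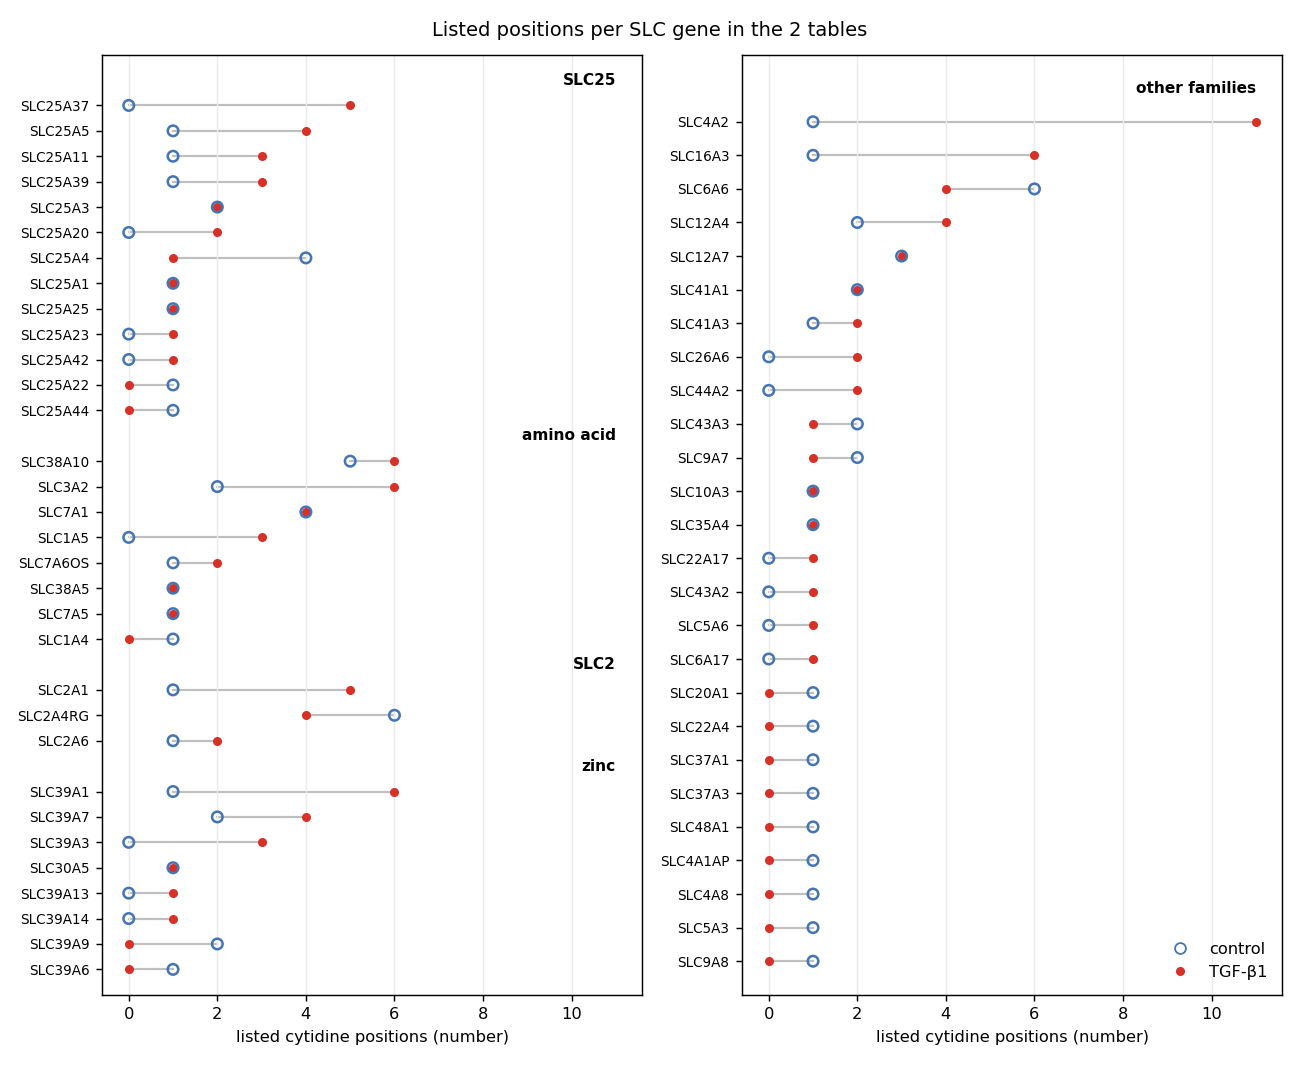
Number of listed cytidine positions (x axis) of each of the 58 SLC genes in the control table (open blue circles) and in the TGF-β1 table (filled red circles), by family class. The widest gap is that of SLC4A2, with 1 position in control and 11 after TGF-β1, and the widest gaps the other way are SLC25A4 with 4 and 1, SLC2A4RG and SLC6A6 with 6 and 4, and SLC39A9 with 2 and 0.

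Coding sequence, 3'UTR and 5'UTR all carried listed SLC cytidines. Coding sequence held 100 of the 171 SLC positions (58.5%, 95% Wilson interval 51.0 to 65.6), and 75.3% of all 17862. The 3'UTR held 40 (23.4%, 17.7 to 30.3) beside 12.6% of all, and the 5'UTR 29 (17.0%, 12.1 to 23.3) beside 9.88%. A noncoding exon of SLC41A1 and an intron of SLC16A3 held 1 position each. Intervals cover counting error only, and cytidines of a gene are not independent. The classes differed among themselves in a way these numbers only describe. The 3'UTR held 9 of the 20 zinc carrier positions and 10 of the 35 SLC25 positions. The 5'UTR held 17 of the 66 positions of the families outside the SLC25, amino acid, SLC2 and zinc classes, 5 of them in SLC6A6. The tables held 38 and 70 coding positions, 16 and 21 in 5'UTRs, and 19 and 26 in 3'UTRs.

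**Figure D2:**
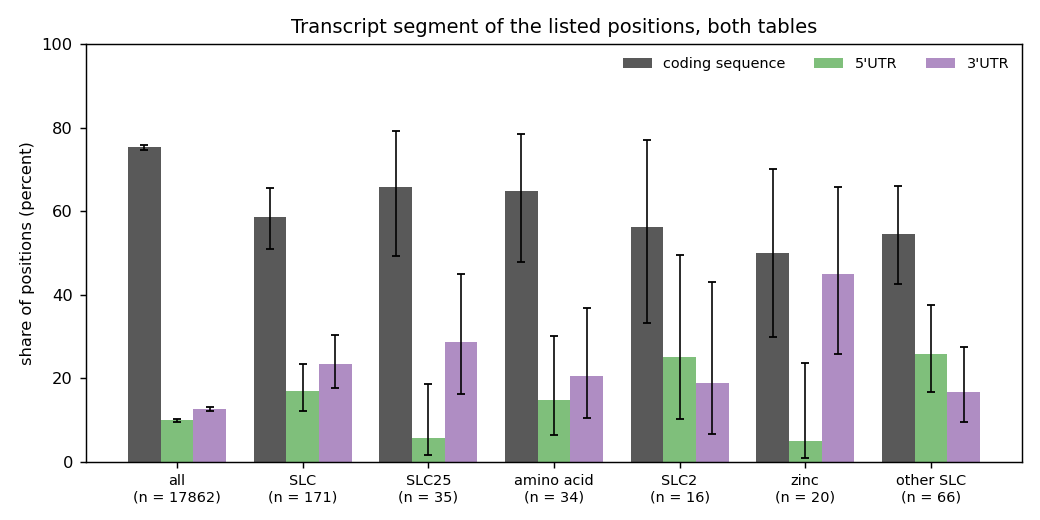
Share of listed positions (y axis, percent) in coding sequence, 5'UTR and 3'UTR, both tables joined, for all genes, all SLC genes and the SLC classes, with the number of positions under each set and 95% Wilson intervals as error bars. Coding sequence holds 58.5% of SLC positions and 75.3% of all positions.

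The mitochondrial SLC25 carriers had 13 and 24 listed positions (ratio 1.85) in 13 genes. Of these, 7 had more (53.8%, beside 51.2% of all genes), 3 fewer (23.1%, beside 35.3%) and 3 equal numbers (23.1%, beside 13.6%). SLC25A37 (ENSG00000147454), mitoferrin, which brings iron into mitochondria, was listed after TGF-β1 only, with 4 coding cytidines at 3.01% to 4.17% and 1 in the 3'UTR at 9.52%. The coding ones form 2 close pairs near the gene's start. SLC25A20, the carnitine-acylcarnitine carrier of fatty acid oxidation, was also listed after TGF-β1 only, at 2 adjacent 3'UTR cytidines of 8.21% and 18.3%. SLC25A39, which carries glutathione into mitochondria, had a single control position at 2.04% against 3 of the TGF-β1 table at 2.44% to 4.41%. SLC25A11, the oxoglutarate-malate carrier, had 1 at 2.20% and 3 at 1.88% to 4.42%, all in the 3'UTR and none shared. SLC25A23, an ATP-Mg/phosphate carrier, at 15.2%, and SLC25A42, the coenzyme A carrier, at 20.1%, had 1 position each after TGF-β1 only. SLC25A22, a glutamate carrier, at 6.26%, and SLC25A44, a carrier of branched-chain amino acids, at 8.52%, had 1 each in control only.

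Of the ADP/ATP carriers, 1 had fewer and 1 more listed positions after TGF-β1. SLC25A4, the form of heart and muscle, had 4 coding positions in control, at 1.32%, 2.66%, 5.86% and 5.91%, and 1 after TGF-β1 at 2.37%. SLC25A5, the form of dividing cells, had 1 coding cytidine at 11.98% in the control table against 4 after TGF-β1, at 4.60%, 5.31%, 6.26% and 9.39%. None of these 10 cytidines was listed in both tables, beside 1985 of the 17862 positions of all genes. The genes are close paralogs, and how the authors placed reads that fit both is not given in the sources used here, so the assignment of single positions to SLC25A4 or SLC25A5 is uncertain. Both shared cytidines of the family were higher after TGF-β1, beside 78.4% of the shared positions of all genes. SLC25A25, an ATP-Mg/phosphate carrier regulated by calcium, had 11.2% and 25.2% at chromosome 9 position 128101321 in the 5'UTR (plus strand). SLC25A3, the phosphate carrier that supplies ATP synthase, had 2.81% and 4.55% at chromosome 12 position 98595751. SLC25A1, the citrate carrier, had a 3'UTR cytidine of 12.5% in control and a 5'UTR cytidine of 2.62% after TGF-β1.

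Genes of the amino acid class had 15 and 23 positions (ratio 1.53), or 14 and 21 without SLC7A6OS. Of the 8 genes 4 had more (50%, beside 51.2% of all genes), 1 fewer (12.5%, beside 35.3%) and 3 equal numbers (37.5%, beside 13.6%). Without SLC7A6OS, 3 of 7 had more (42.9%). SLC3A2 (ENSG00000168003) had 2 control positions, both in the 5'UTR, and 6 after TGF-β1, of which 4 were coding cytidines at 2.19% to 6.59%. SLC7A5, the light chain that pairs with SLC3A2 to import leucine and other large neutral amino acids, had 1 shared coding cytidine at chromosome 16 position 87869376 (minus strand), with 2.26% in control and 2.51% after TGF-β1. SLC1A5, a glutamine and neutral amino acid exchanger, was listed in the TGF-β1 table only, with 3 cytidines at 1.78%, 3.20% and, in the 5'UTR, 10.7%. Its relative SLC1A4 had 1 5'UTR cytidine in control only, at 6.57%. SLC38A10, a member of the sodium-coupled neutral amino acid carriers, had 5 and 6 positions, all coding, from 1.30% to 11.33% in control and from 1.93% to 13.8% after TGF-β1, and 1 of them was shared. SLC38A5, which carries glutamine, had 14.9% at a coding cytidine in control and 25.4% at another after TGF-β1, the highest values of the class in either table. SLC7A1, the cationic amino acid carrier that takes up arginine and lysine, had 4 and 4 positions, 6 of its 7 cytidines in the 3'UTR. Its shared cytidine had 1.28% and 1.96%, and the coding one, after TGF-β1 only, had 15.2%. All 4 shared positions of the class were higher after TGF-β1, by 0.248 to 1.46 points, beside 78.4% of the shared positions of all genes.

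The SLC2 names held 8 and 11 positions, and 2 genes of 3 are glucose carriers. Those carriers had 2 and 7. SLC2A1 (ENSG00000117394), the main basal glucose carrier, had 1 and 5 positions, 4 of these 5 in the 5'UTR. The shared one, at chromosome 1 position 42958735 (minus strand), had 5.18% and 5.95%, and the other 4 had 2.21% to 3.57%. SLC2A6, an intracellular carrier of this family, had 5.33% at a 3'UTR cytidine in control, and after TGF-β1 21.2% at another 3'UTR cytidine and 5.06% at a coding one. SLC2A4RG had 6 and 4 positions, and its coding cytidine at chromosome 20 position 63740423 had the highest control value of all SLC genes, 33.7%, in control only. Of its 2 shared cytidines the coding one had 3.68% and 7.47%, and the 3'UTR one shown above was lower after TGF-β1.

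Zinc carriers had 7 and 16 positions (ratio 2.29) in 8 genes. Of these, 5 had more (62.5%, beside 51.2% of all genes), 2 fewer (25%, beside 35.3%) and 1 equal numbers (12.5%, beside 13.6%). SLC39A1 (ENSG00000143570), a zinc importer of the plasma membrane, had 1 and 6 positions. At its shared 3'UTR cytidine, chromosome 1 position 153960079 (minus strand), control had 7.66% and TGF-β1 23.9%, and this cytidine and 2 others of its 3'UTR are also annotated to ENSG00000285779. SLC39A7, which releases zinc from the endoplasmic reticulum, had 2 and 4 positions. Its 2 shared coding cytidines lie 2 bases apart on chromosome 6, at 33201348 with 3.26% and 3.94% and at 33201350 with 1.92% and 6.45%, so the lower of them in control was the higher after TGF-β1. SLC39A3, another importer, had 3 positions, all after TGF-β1 only, at 3.08% to 12.5%, and the one at 3.08% is also annotated to ENSG00000267001. SLC39A14, a zinc and iron importer of the liver, at 22.7%, and SLC39A13 at 2.59% had 1 3'UTR position each after TGF-β1 only. SLC39A9 with 2 3'UTR positions at 5.70% and 6.11%, and SLC39A6 with 1 at 8.60%, were in control only. SLC30A5, an exporter that loads zinc into the secretory pathway, had a coding cytidine of 2.80% in control and another, 2 bases away, of 5.91% after TGF-β1.

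The SLC gene with most listings was SLC4A2 (ENSG00000164889), a chloride-bicarbonate exchanger that regulates cell pH. In control 1 coding cytidine was listed, at 5.61%, against 11 cytidines after TGF-β1, 10 of them coding, from 1.66% to 8.82% with a median of 3.46%. The control cytidine was not among the 11. SLC16A3, the carrier that exports lactate from glycolytic cells, had a single control position at 4.55% against 6 after treatment, among them a 3'UTR cytidine at chromosome 17 position 82239332 with 29.9%, the highest value of any SLC gene after TGF-β1. SLC12A4, a potassium-chloride cotransporter, had 2 and 4 positions, and its shared 3'UTR cytidine had 2.53% and 5.47%. Its relative SLC12A7 had 3 positions in each table, none shared, from 3.93% to 8.65% and from 4.64% to 13.3%. SLC44A2, a choline transporter-like protein, at 6.99% and 11.63%, and SLC26A6, an anion exchanger, at 1.70% and 2.71%, had 2 positions each after TGF-β1 only. SLC5A6, a carrier of biotin and pantothenate, SLC6A17, SLC22A17 and SLC43A2 had 1 each there, from 2.20% to 18.3%.

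SLC6A6 (ENSG00000131389), the taurine carrier, had fewer listed positions after TGF-β1. Its counts were 6 and 4, with 5 of its 7 cytidines in the 5'UTR and none in coding sequence. On chromosome 3 its shared 5'UTR cytidines had 11.9% and 9.31% at 14402631, 3.13% and 5.22% at 14402754, and 5.01% and 3.84% at 14402756, so that 2 were lower after TGF-β1 and the one between them was higher. Both 3'UTR cytidines of SLC6A6, at 2.29% and 2.55%, were in control only. Other genes with 1 position, in control only, were SLC5A3, the myo-inositol carrier, at 20.04%, SLC37A1 at 11.1%, SLC22A4 at 10.2%, the heme carrier SLC48A1 at 9.52%, SLC4A1AP at 7.08%, the sodium-proton exchanger SLC9A8 at 6.95%, the phosphate carrier SLC20A1 at 4.9997%, SLC4A8 at 4.01% and SLC37A3 at 3.76%.

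**Figure D3:**
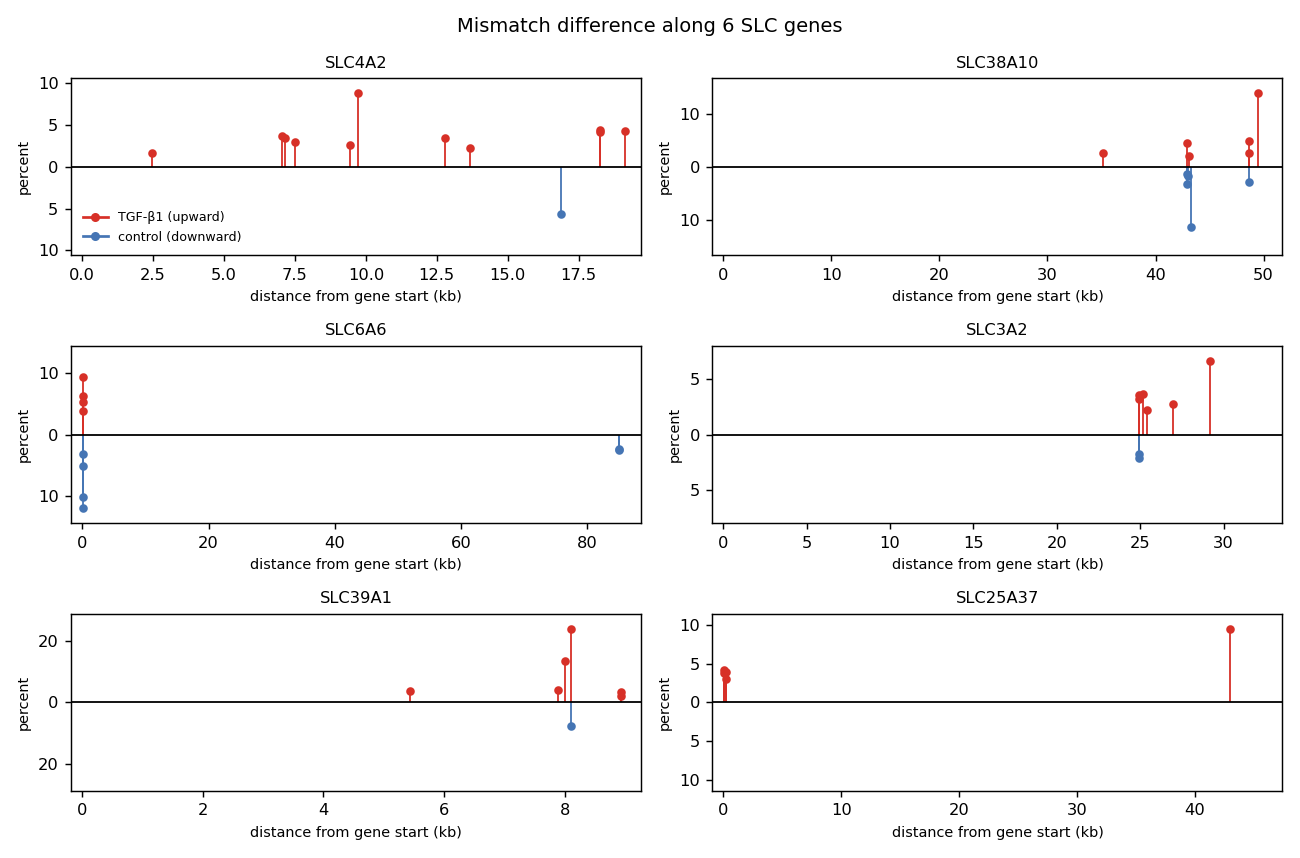
Mismatch difference (y axis, percent) of each listed cytidine against its distance from the gene's start in kb (x axis) in 6 SLC genes, with TGF-β1 values drawn upward in red and control values downward in blue. SLC4A2 has 11 upward and 1 downward line, SLC6A6 clusters in the 5'UTR, and SLC25A37 has upward lines only.

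The 21 SLC cytidines listed in both tables were mostly higher after TGF-β1. They make up 28.4% of the control SLC positions and 17.8% of those after TGF-β1, beside 24.5% and 16.9% over all genes. At 18 of them TGF-β1 gave the higher value (85.7%, Wilson interval from 65.4 to 95.02), beside 78.4% of the 1985 shared positions of all genes. The medians were 3.68% in control and 5.95% after TGF-β1, and the median of the paired differences was 1.92 points (order-statistic interval 0.683 to 4.53), beside 1.73 points over all shared positions. A value at least 1.5-fold higher was found at 13, beside 49.8% of all shared positions, and one at least 1.5-fold lower at 1, beside 5.29%. With 1 value per gene, 15 of 17 genes were higher. All 8 shared coding cytidines were higher, beside 1247 of 1577 over all genes. In the 5'UTR 6 of 8 were higher, beside 163 of 205, and in the 3'UTR 4 of 5, beside 128 of 174. The largest differences were 16.3 points each in SLC9A7, a sodium-proton exchanger of the Golgi, and SLC39A1, followed by 13.97 in SLC25A25, 7.27 in SLC10A3 and 6.80 in SLC43A3. SLC9A7 had 4.73% and 21% at chromosome X position 46607191 (minus strand), in coding sequence, where the deposited p-value of the TGF-β1 table is exactly 0, and its second position, 11.64% in the 3'UTR, was in control only. SLC43A3, a carrier of purine bases, had 3.39% and 10.2% at chromosome 11 position 57427073 in the 5'UTR. SLC10A3 had 9.28% and 16.5%, and the magnesium carrier family member SLC41A3 had 5.09% and 8.95%. A deposited p-value of exactly 0 stood at 8 SLC positions of the control table and 14 of the TGF-β1 table, and of these only that of SLC9A7 was shared. Among the others were 25.4% in SLC38A5, 22.7% in SLC39A14, 15.2% in SLC25A23 and, in control, 12.5% in SLC25A1. Both positions of SLC25A20 and both of SLC30A5 were also among them. The 3 lower positions were those of SLC2A4RG and SLC6A6 described above.

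**Figure D4:**
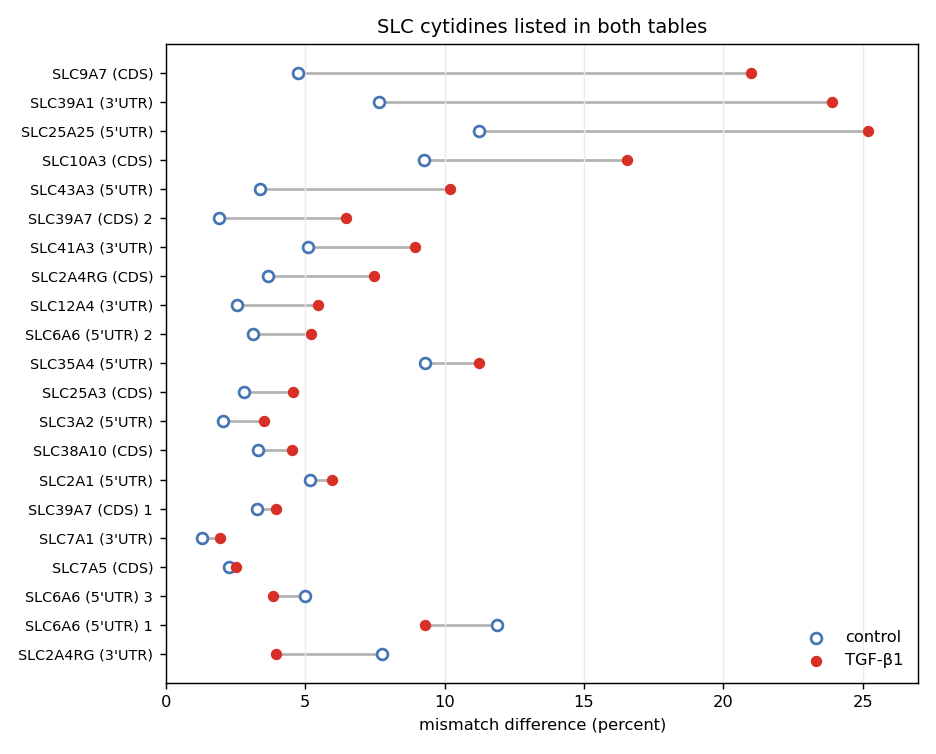
Mismatch difference (x axis, percent) of the 21 SLC cytidines listed in both tables, with open blue circles for control, filled red circles for TGF-β1 and a line joining the values of each cytidine, in the order of the difference. Several cytidines of a gene and segment are numbered by their coordinate. TGF-β1 is higher at 18 of 21, by 16.3 points in SLC9A7 and SLC39A1, and lower at 3.

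Several SLC cytidines listed in 1 table alone had a neighbour in the other table. Of the 53 SLC positions in control only, 10 (18.9%, 95% Wilson interval 10.6 to 31.4) lay within 10 bases of a position listed after TGF-β1, beside 7.30% of 6127 over all genes. Of the 97 in the TGF-β1 table only, 9 (9.28%, 4.96 to 16.7) lay that near a control position, beside 6.01% of 9750. The cytidines were adjacent in SLC38A10 on chromosome 17, at 81246892 with 2.93% in control and 81246893 with 4.77% after TGF-β1, and in SLC41A1, a magnesium carrier, at 2.98% and 3.30%. They lay 3 bases apart in SLC25A3, at 1.36% and 2.07%. In all, 43 of the 171 SLC positions (25.1%, 19.2 to 32.1) lay in runs of neighbours with gaps of at most 10 bases, beside 16.4% over all genes. There were 20 such runs in 15 genes. In 6 of them each table listed a cytidine and none was listed in both, which was not counted over all genes. Neighbouring cytidines share reads, and runs in SLC6A6, SLC3A2 and SLC2A4RG held 3 each.

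Among the classes named above, the ratio of TGF-β1 to control positions was 2.29 in zinc carriers (95% interval 0.966 to 5.41, from the Wilson interval of the share), 1.85 in SLC25 (0.952 to 3.58), 1.53 in the amino acid class (0.809 to 2.91) and 1.38 in the SLC2 names (0.569 to 3.32). All 4 intervals overlap and hold the 1.46 of all genes. The order of the classes was not kept at a deposited p under 0.001, where zinc carriers had 6 and 8 positions (1.33) and the amino acid class 6 and 13 (2.17), beside 1.77 over all genes. The other 26 SLC genes had 31 and 44 positions, a ratio of 1.42. Without SLC2A4RG the SLC2 ratio was 3.5, on 9 listings. Removing SLC4A2 alone moved the ratio over all SLC genes from 1.59 to 1.47. Values of at least 10% were listed at 12 SLC positions in control (16.2%) and 23 after TGF-β1 (19.5%), beside 12.3% and 18.4% over all genes.

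Genes that serve these carriers without being SLC members were taken from a list of 36, of which 26 were listed, 12 with more positions after TGF-β1 (46.2%, beside 51.2% of all genes), 10 with fewer (38.5%, beside 35.3%) and 4 with equal numbers (35 and 48 positions in all). These shares lie near those of all genes. Among subunits and chaperones, BSG, the chaperone of SLC16A3, had 2 and 4, and CD44, which stabilises the cystine carrier SLC7A11, had 2 and 5. In mitochondria, TIMM22 and TIMM23, channels of the inner-membrane import machinery, had 0 and 3 each, the SLC25-related outer-membrane protein MTCH1 had 1 and 5, MTCH2 2 and 2, and VDAC1, the outer-membrane channel, 1 and 3. The kinases and transcription factors of the list were not a group set beforehand, and each had few positions. Over all genes, 35.3% had fewer and 13.6% equal numbers after TGF-β1. OXSR1, a kinase that acts on SLC12 cotransporters, had 4 and 0, NEDD4L, a ubiquitin ligase of membrane transporters, 2 and 0, and MTOR 2 and 0. WNK1 had 3 and 2 and STK39 1 and 1. SGK1, TXNIP, which lowers glucose uptake, ATF4, which activates amino acid carrier genes, MTF1, the zinc-sensing transcription factor, and HIF1A had 1 and 0 each. Of the proteins that act with MTOR on lysosomes, RRAGC had 0 and 1 and LAMTOR1 2 and 3. The metal-binding MT2A had 0 and 1, FTL, the ferritin light chain, 1 and 4, and TFRC, the transferrin receptor, 0 and 1. At the 11 shared positions of the list 9 were higher after TGF-β1 (81.8%, beside 78.4% of all 1985 shared positions).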

How the data were processed

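Libraries were made from polyadenylated RNA of LX-2 cells, 2 per group, grouped by their titles. The submitters' processing notes name build hg38 and the tools fastp (version 0.23.1), STAR (2.7.6a) and featureCounts, without their roles. How positions were called and filtered, and how replicates were combined, is not given in the sources used here. For each group the authors deposited a table of positions with a mismatch difference, a fraction of at least 0.01 per the file headers and values, and a p-value below 0.05. Lines of a position were merged to 1 per position and gene. A position was shared if both tables listed the same base of the same strand. The planned model per position needed reads, so counts, shares (95% Wilson intervals) and median differences without tests were used (Python 3.11.15, pandas 2.3.3, SciPy 1.17.1). The shared count and the median difference were checked on 20 simulated sets with a planted shift of 2 points. Shares, their intervals and counts per gene were not checked in this way. RefSeq supplied gene types for 58 SLC genes and the sequence windows (250 bases before to 50 after a start, GRCh38.p14).

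The members, classes and gene lists were chosen with earlier results of these data known. Genes were named by a rule: those most listed over both tables and per class, largest differences, genes of 1 table, highest values and listed partner genes. One partner gene, kept in the counts of its list, is not reported here. Every other SLC gene was added after its values were seen.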

Additional observations from a re-analysis of the deposited data

How the results depend on the processing

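The alternatives were a deposited p under 0.001, no p of exactly 0, values of at least 5%, coding positions, positions of 1 gene, SLC4A2 left out, a TGF-β1 list reduced by lowest p to as many positions as control, other scales, and, chosen after seeing the data, SLC2A4RG, SLC4A1AP and SLC7A6OS left out. A filter on noncoding names and NHERF adaptors removed 0 listings. Of 73 values, 66 stayed within the interval of the main value where the scale was the same, and those with a direction kept it. Some of the 66 could not have moved. They include the values of the filter that removed 0 listings and those of sets without the genes left out. The SLC25, amino acid and SLC2 ratios over positions of 1 gene also could not move, since these classes held no position of several genes. The SLC2 ratio was 1 over values of at least 5% (4 and 4 positions), over coding positions (5 and 5) and with the shortened list (8 and 8). The zinc ratio was 1.33 at p under 0.001 and 1.14 with the shortened list, the SLC25 ratio 1.08 with the shortened list, and the amino acid ratio 2.43 over coding positions. The median difference at shared SLC positions ran from 1.83 to 3.87 points. Its interval held 0 at p under 0.001 (-1.17 to 16.3, 11 positions) and over values of at least 5% (-2.58 to 16.3, 7 positions). The share of SLC genes with more positions ran from 37.0% to 57.4%. With that shorter TGF-β1 list, the ratio of SLC positions was 0.973 and that of the amino acid class 0.867, and 46.3% of SLC genes had fewer positions, beside 47.3% of all genes, and the ratio over all genes is then close to 1 by construction. The shared-position result was not run on the shortened list. Without SLC2A4RG the SLC2 ratio was 3.5. No paired analysis was possible because the tables hold 1 value per group and position, and for the same reason no replicate could be left out. Depth is unknown, so what the reads could detect at a position was not analysed here.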
